A study of Rattus norvegicus with 6 samples.

Results

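E2F factors and pocket proteins were followed in cultured rat cardiomyocytes given vehicle or progesterone. The set is defined by gene symbol (E2f1, E2f2, E2f3, E2f4, E2f5, E2f7, E2f8, Rb1, Rbl1 and Rbl2), and 9 of the 10 genes were matched among 33565 rows of the count table, 6 E2F genes and 3 pocket protein genes. E2f1 was not matched by name and was not analysed here. Primary cardiomyocytes were isolated from hearts of Sprague-Dawley rats at postnatal day 7 and grown in medium with 10% fetal bovine serum. The 3 control cultures received vehicle and the 3 progesterone cultures received 100 nM progesterone, a steroid hormone, in both cases for 24 h. mRNA-enriched RNA was then sequenced, to between 21156793 and 25376220 counts per library. The labels speak of biological replicates without saying whether they came from separate animals or cultures, so p-values measure the spread between these libraries, which may be technical.

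E2F proteins are transcription factors that bind, mostly as heterodimers with a DP protein, to promoters of genes needed for DNA synthesis and cell division. Rb1 (pRB), Rbl1 (p107) and Rbl2 (p130) are the pocket proteins, which bind E2Fs and hold their targets silent until cyclin-dependent kinases phosphorylate them. E2f1, E2f2 and E2f3 are classed as activators, E2f4 and E2f5 as partners of p107 and p130 in quiescent cells, and E2f7 and E2f8 as atypical repressors that bind DNA without a DP protein. The activators, the atypical E2Fs and p107 are themselves E2F targets, whereas p130 is typical of cells out of the cycle. In rodent hearts most cardiomyocytes leave the cell cycle in the first days after birth. The series title names cardiomyocyte proliferation, and the single comparison the labels allow is progesterone against vehicle.

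Promoter sequences were taken from RefSeq (GRCr8) for the genes that matched an entry, E2f3, E2f7, Rb1, Rbl1 and Rbl2, as the 250 bases before the annotated start on the gene's strand. E2f7 and Rbl1 are shown as the pair that rose most among these genes, and Rbl2 as the gene that fell. Capitals mark E2F words on either strand, for which the search used the word TTCCCGC and its relatives that differ in the middle bases, namely TTGGCGC first, then the form TTCGCGC and lastly the form TTGCCGC. They would also mark the cell cycle homology element TTTGAA, which is known from promoters of mitotic genes.
E2f7, chr7:48036653-48036902, plus strand: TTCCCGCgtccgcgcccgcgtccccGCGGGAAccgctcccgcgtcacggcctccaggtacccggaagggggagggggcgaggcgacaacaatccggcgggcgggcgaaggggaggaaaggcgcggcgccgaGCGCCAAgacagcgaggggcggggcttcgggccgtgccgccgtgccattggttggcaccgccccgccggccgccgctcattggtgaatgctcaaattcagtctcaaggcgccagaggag
Rbl1, chr3:166289377-166289626, minus strand: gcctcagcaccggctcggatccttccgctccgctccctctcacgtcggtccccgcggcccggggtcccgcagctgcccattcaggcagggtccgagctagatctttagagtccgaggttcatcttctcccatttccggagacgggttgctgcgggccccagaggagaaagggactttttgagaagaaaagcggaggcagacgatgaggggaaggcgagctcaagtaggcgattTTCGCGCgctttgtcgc
Rbl2, chr19:32096412-32096661, minus strand: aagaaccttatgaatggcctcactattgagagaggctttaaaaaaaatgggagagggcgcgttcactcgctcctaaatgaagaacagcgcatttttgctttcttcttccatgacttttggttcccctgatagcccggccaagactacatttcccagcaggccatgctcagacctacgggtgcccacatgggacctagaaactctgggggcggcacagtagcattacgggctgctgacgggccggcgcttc
The E2f7 window held 3 E2F words and the Rbl1 window held 1, at 17 to 11 bases before the start. Neither motif was in the Rbl2 window. E2f3 held 2 E2F words and 1 TTTGAA, and Rb1 held 1 E2F word. An E2F word was thus found in 4 of 5 windows, against 7.97% of all 27457 promoters in the RefSeq table and 13.7% of the 10391 that belong to genes tested here. The E2f7 window is 73.2% G and C, that of Rbl1 62.4%, that of Rbl2 52.8%, that of Rb1 81.2% and that of E2f3 55.2%. The E2F words are themselves rich in G and C. Promoters of equal G and C content were not compared, so these shares cannot show an excess of words beyond that content. A match describes letters and is not a binding site.

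Progesterone libraries held more transcript of the atypical E2Fs and of p107 and less of p130. By edgeR's quasi-likelihood test, 6 of the 9 genes were higher at an adjusted p under 0.05 (E2f3, E2f5, E2f7, E2f8, Rb1 and Rbl1), 1 was lower (Rbl2) and 2 did not pass (E2f2 and E2f4). In this comparison 63.0% of the 15075 genes tested changed, 31.2% higher and 31.8% lower, so that a change by itself was common. At least 2-fold increases were found for 3 of the 9 genes and for 7.14% of all genes, and at least 2-fold decreases for 0 of the 9 and 9.31% of all. The median log2 fold change over the 9 genes was 0.38, and over all genes tested it was 0.00. Control and progesterone CPM values (counts scaled to a common library size, with TMM factors) did not overlap in 7 of 9 genes that were higher and in 1 that was lower, against 33.8% and 34.8% of all genes. Fewer cells of a type and less RNA per cell cannot be told apart in such bulk samples, nor can more cycling cells and more transcript per cycling cell.

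**Figure D1:**
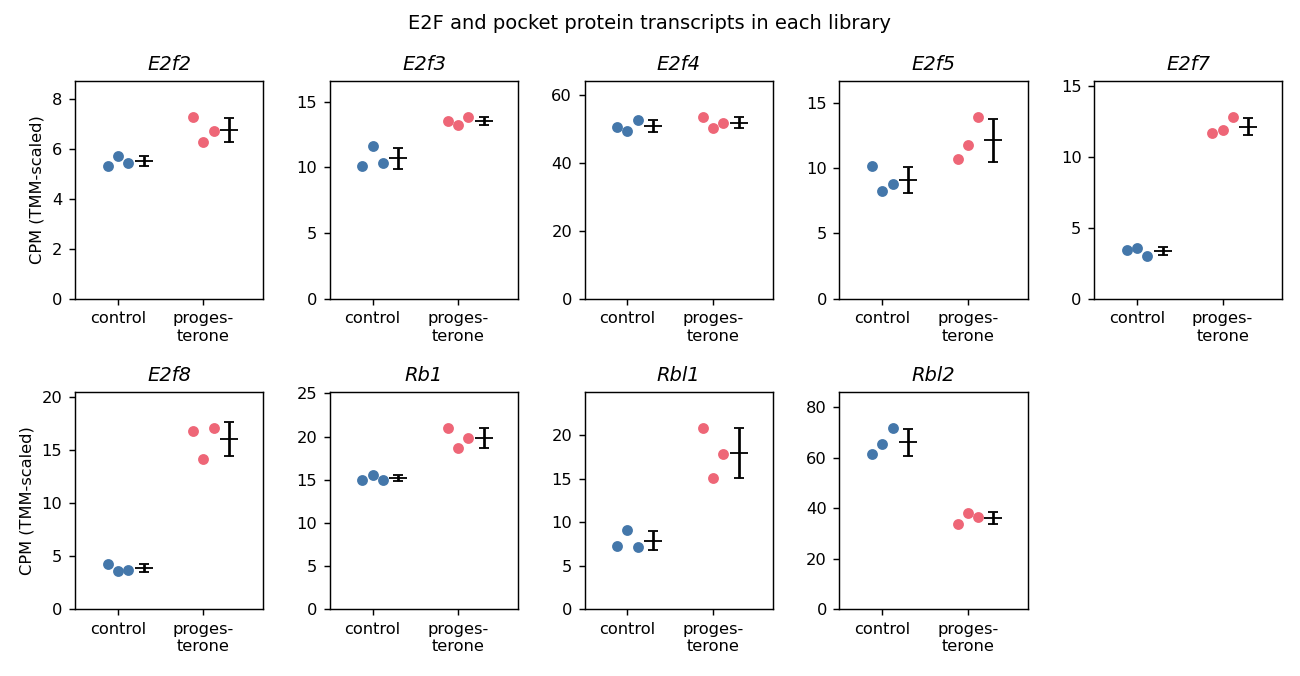
TMM-scaled CPM (vertical axis, from 0) of the 9 genes in each of 6 libraries, control in blue and progesterone in red, with the mean and SD of 3 libraries beside the points. E2f7, E2f8 and Rbl1 lie well above the control points with progesterone and Rbl2 below them, while the points of E2f4 overlap.

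E2f8 and E2f7, the atypical repressors, had the largest increases of the set. E2f8 (ENSRNOG00000022537, chromosome 1, 104187100 to 104202591, rat build unnamed) was read at 4.29, 3.61 and 3.68 CPM in the controls and at 16.8, 14.2 and 17.1 CPM with progesterone. Every progesterone library was thus more than 3 times as high as any control library. Its log2 fold change was 2.05 ± 0.12 (SE), a 4.15-fold increase (95% interval 3.47 to 4.98, adjusted p = 8.1e-10 by edgeR). E2f7 (ENSRNOG00000026252, chromosome 7, 53275676 to 53316481) was read at 3.46, 3.61 and 3.02 CPM and, with progesterone, at 11.7, 11.9 and 12.8 CPM. The progesterone libraries lay close together and far from the controls. E2f7 rose 3.6-fold (log2 fold change 1.85 ± 0.13, 95% interval of the fold 2.99 to 4.34, adjusted p = 4.1e-09 by edgeR). The intervals of E2f7 and E2f8 overlap, and both log2 fold changes lie above 1.28, the value that 5% of all genes exceeded. They rest on 241 and 277 counts over the 3 control libraries, the lowest of the set.

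The activators that could be measured moved little. E2f3, which encodes long and short proteins from separate promoters that a single row cannot separate, was read at 10.1, 11.6 and 10.3 CPM in the controls and at 13.5, 13.2 and 13.8 CPM with progesterone. The groups did not overlap, and E2f3 rose 1.26-fold (log2 fold change 0.33 ± 0.10, adjusted p = 0.0066 by edgeR). E2f2 was read at 5.32, 5.71 and 5.43 CPM in the controls and at 7.25, 6.26 and 6.71 CPM with progesterone. All progesterone values were above all control values, but the log2 fold change of 0.30 ± 0.13 did not pass (adjusted p = 0.063 by edgeR). Its interval runs from 0.01 to 0.58, that is from almost no difference to 1.49-fold. Upper quartile scaling, which shifted the median over all genes by 0.1 on the log2 scale and put 60.1% of changed genes higher against 49.6% with TMM, gave an adjusted p of 0.017 for E2f2.

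For E2f1, the activator most closely tied to S phase entry and to apoptosis, no value can be given. The row named Necab3, which encodes a calcium-binding protein, has the entry E2F in the authors' transcription factor column, and Necab3 is the nearest gene to E2f1 in the RefSeq annotation of GRCr8. This row (ENSRNOG00000016708, chromosome 3, 150047826 to 150073721) was looked up after the other values had been seen. It was read at 16.1, 19.2 and 18.5 CPM in the controls and at 40.7, 40.9 and 40.4 CPM with progesterone, a 2.27-fold increase (log2 fold change 1.18 ± 0.07, adjusted p = 8.7e-10 by edgeR). The row also overlaps Actl10 and RGD1561517 on the other strand, each with at most 54 counts per group. Which part of these reads came from which gene was not tested.

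E2f4 and E2f5, the E2Fs of quiescent cells, differed from each other. E2f4, the most abundant E2F of the set, was read at 50.6, 49.3 and 52.6 CPM in the controls and at 53.4, 50.4 and 51.8 CPM with progesterone. The groups overlapped, and the 95% interval of the fold, 0.947 to 1.1, leaves room for no more than a small difference in either direction (adjusted p = 0.63 by edgeR). Upper quartile scaling put E2f4 past the threshold, at 0.13 on the log2 scale (adjusted p = 0.041). E2f5 was read at 10.2, 8.24 and 8.8 CPM in the controls and at 10.7, 11.8 and 13.9 CPM with progesterone. The highest control and the lowest progesterone library nearly touched, and E2f5 rose 1.33-fold (log2 fold change 0.41 ± 0.12, adjusted p = 0.0081 by edgeR). Without progesterone replicate 3, the highest library, the log2 fold change was 0.31 and the adjusted p 0.059, so that the call rests on that library.

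Among the pocket protein transcripts, that of p107 rose and that of p130 fell. Rbl2, which encodes p130 (ENSRNOG00000012153, chromosome 19, 17300089 to 17346808), was read at 61.3, 65.2 and 71.7 CPM in the controls and at 33.7, 38.3 and 36.4 CPM with progesterone. Each progesterone library was well below each control library. Rbl2 was 1.83-fold lower (log2 fold change -0.87 ± 0.07, 95% interval -1.01 to -0.73, adjusted p = 1.7e-08 by edgeR). Rbl1, which encodes p107 (ENSRNOG00000006921, chromosome 3, 153263692 to 153321352), was read at 7.28, 9.15 and 7.18 CPM in the controls and at 20.8, 15.1 and 17.8 CPM with progesterone. It rose 2.27-fold (log2 fold change 1.18 ± 0.13, 95% interval of the fold 1.87 to 2.76, adjusted p = 2.9e-06 by edgeR), with a wider spread among progesterone libraries (SD 2.87 CPM) than among controls (1.11 CPM). Rb1, the retinoblastoma gene, was read at 15.0, 15.6 and 15.0 CPM and at 21.0, 18.7 and 19.8 CPM. The groups did not overlap, and Rb1 rose 1.3-fold (log2 fold change 0.38 ± 0.08, adjusted p = 0.00046 by edgeR).

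Of the 9 rows, 4 overlap a neighbouring gene or lie at most 577 bases from it, with the strand setting of the counting not given in the sources used here. Lpar6, a lysophosphatidic acid receptor gene, lies on the other strand within the span of Rb1 and had 17.3 ± 1.66 CPM in the controls against 15.7 ± 0.41 (SD, n = 3), with a log2 fold change of -0.14 ± 0.09. Aktip lies 39 bases from Rbl2, also on the other strand, and had 1905 counts over the control and 2032 over the progesterone libraries, so that it did not fall with Rbl2. RGD1565641, on the other strand 577 bases from E2f5, had 1454 and 1295 counts, more than the 653 and 797 of E2f5 itself. Elmo3, on the same strand 230 bases from E2f4, had 463 and 457. The nearest neighbours of the other 5 rows lie at least 11867 bases away. The share of shared reads was not tested for any of these rows.

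Compared per length, in FPKM (fragments scaled by gene length and library total, as deposited), E2f4 had the highest level of the 6 E2F genes of the set in both groups and Rbl2 that of the 3 pocket proteins. In the controls the order of the E2F levels was E2f4 (25.1 ± 0.833 FPKM), E2f5 (8.94 ± 1.03), E2f3 (4.36 ± 0.334), E2f8 (1.46 ± 0.146), E2f2 (1.16 ± 0.0408) and E2f7 (0.995 ± 0.0906; SD, n = 3 for each), and no neighbours in this order overlapped. With progesterone E2f8 (6.07 ± 0.61 FPKM) came after E2f5, its range overlapping that of E2f3 (5.5 ± 0.121), and E2f7 (3.59 ± 0.173) stood above E2f2 (1.42 ± 0.106). The summed FPKM of the 6 genes went from 40.7 to 43.0 in the controls to 51.9 to 56.4 with progesterone. E2f7 and E2f8 together made up 6.18, 5.96 and 5.41% of this sum in the controls and 18.3, 17.1 and 18.2% with progesterone. The share of E2f4 and E2f5 went from between 79.4 and 81.9% to between 68.6 and 70.0%, while that of E2f2 and E2f3 was 12.2 to 14.6% and 12.5 to 13.1%, overlapping ranges.

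The transcript sum of the pocket protein genes moved less than its make-up. Their summed FPKM was 19.8 to 21.8 in the controls and 18.8 to 20.5 with progesterone, and these ranges overlap. In the controls Rbl2 made up 63.6, 62.5 and 67.2% of the sum, and with progesterone 33.7, 41.8 and 37.9%. The share of Rbl1 went from between 10.9 and 14.2% to between 26.6 and 33.7%. That of Rb1 went from between 21.9 and 24.1% to between 31.6 and 32.6%. The ratio of Rbl1 to Rbl2 was 0.192, 0.227 and 0.162 in the controls and 0.999, 0.637 and 0.792 with progesterone. With progesterone the levels of Rb1 (6.31 ± 0.373 FPKM) and Rbl1 (5.93 ± 0.958) overlapped, just below Rbl2 (7.4 ± 0.464). These shares are descriptions of transcripts over the genes of the set that have a row, and protein is not measured by these libraries. E2f6, which is outside the set, is not in the E2F sum, although its level was above that of E2f4. With E2f6 in the sum every E2F share would be smaller. The shares also depend on the gene lengths in the table, from 1014 bases for E2f5 to 4860 for Rbl2.

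**Figure D2:**
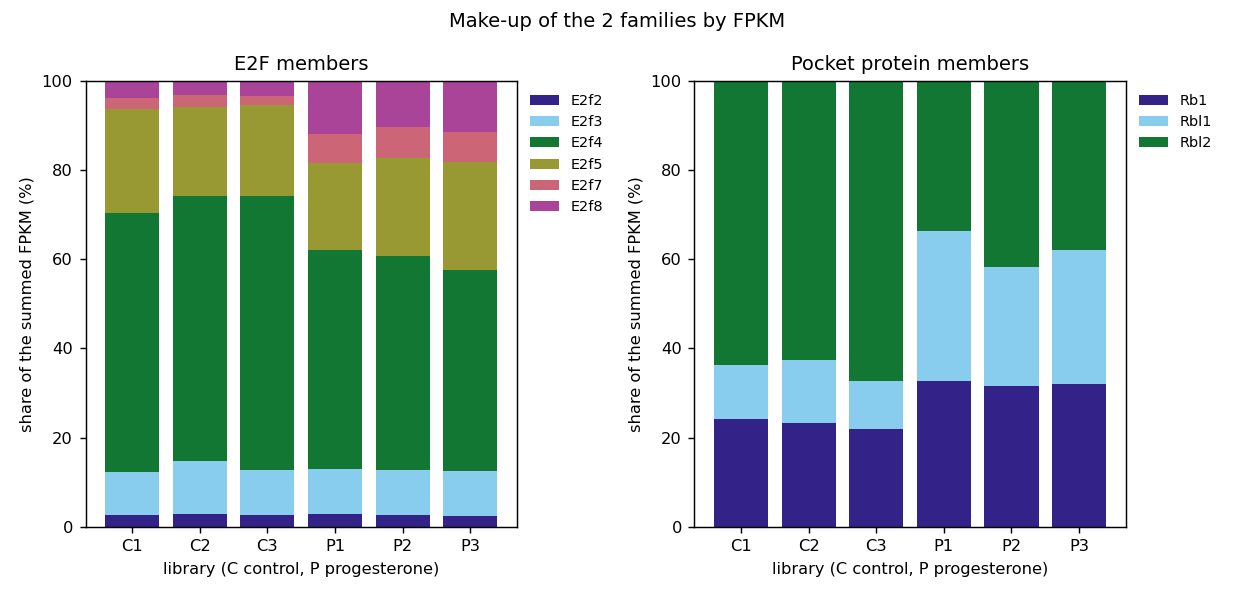
Share of the summed FPKM (%, vertical axis) held by each gene in each library, for the 6 E2F genes (left) and the 3 pocket protein genes (right), with C for control and P for progesterone. E2f7 and E2f8 together widen from at most 6.18% to at least 17.1%, and Rbl2 narrows from at least 62.5% to at most 41.8%.

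The DP partners and E2f6 were described beside the set. Tfdp1, which encodes DP1, the main dimer partner, was read at 84.4, 76.8 and 77.3 CPM in the controls and at 153.8, 136.4 and 133.1 CPM with progesterone, a 1.77-fold increase (log2 fold change 0.83 ± 0.06, adjusted p = 2.2e-08 by edgeR). Tfdp2, which encodes DP2, stood at -0.17 ± 0.11 on the log2 scale (adjusted p = 0.2). E2f6, a repressor that acts without pocket proteins, rose 1.11-fold (adjusted p = 0.024 by edgeR), a call that was lost without control replicate 2 (adjusted p = 0.13), control replicate 3 (0.092) or progesterone replicate 3 (0.069) and with DESeq2 (0.07). Per length its level, 29.5 FPKM in the controls and 32.6 with progesterone, was above that of E2f4 (25.1 and 25.6).

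The kinases that phosphorylate pocket proteins moved both ways at the first step and upward at the second. Of the 9 G1 cyclin, kinase and phosphatase genes tested, 5 were higher and 3 lower, against 31.2% and 31.8% of all genes. Cyclin D genes fell slightly or did not pass: Ccnd1 had a log2 fold change of -0.31 ± 0.05, Ccnd3 of -0.15 ± 0.04, and Ccnd2 of 0.09 ± 0.04 with an adjusted p of 0.074 by edgeR. Their partners parted, with Cdk4 1.49-fold higher and Cdk6 1.67-fold lower (14.6 ± 0.473 against 8.74 ± 0.103 CPM, SD, n = 3). Cyclin E genes and their kinase rose together: Ccne2 from 8.87 ± 0.561 to 23.1 ± 2.25 CPM, a 2.61-fold increase, Ccne1 1.51-fold and Cdk2 1.73-fold. Cdc25a, the phosphatase that activates Cdk2, rose 1.1-fold (adjusted p = 0.027).

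Inhibitors of these kinases showed no common direction. Of 6 tested, 2 were higher, 2 lower and 2 did not pass, which is near the shares of all genes (31.2% higher, 31.8% lower). Cdkn2c (p18), a Cdk4 and Cdk6 inhibitor and a known E2F target, rose 2.03-fold (7.82 ± 0.695 to 15.9 ± 0.0751 CPM), and Cdkn1c (p57) rose 2.11-fold. Cdkn2a, the locus of p16 and p19ARF, went from 3.75 ± 0.326 to 2.15 ± 0.361 CPM, a 1.74-fold decrease (adjusted p = 0.0019 by edgeR). Cdkn1b (p27) was 1.08-fold lower (adjusted p = 0.035). Cdkn1a (p21), a p53 target, had a log2 fold change of 0.03 with a 95% interval of -0.18 to 0.23, and Cdkn2b (p15) one of 0.04 (-0.11 to 0.18).

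The MuvB complex pairs with p130 and E2f4 in quiescent cells, where the assembly is called DREAM, and with B-Myb and FoxM1 in dividing cells. Of 8 genes tested, 5 were higher, 1 was lower and 2 did not pass. Over all genes tested 63.0% changed, 31.2% higher and 31.8% lower. The factors of dividing cells rose: Mybl2 (B-Myb) was read at 15.4, 16.6 and 13.2 CPM in the controls and at 59.1, 58.6 and 55.1 CPM with progesterone, a 3.82-fold increase (adjusted p = 4.9e-12 by edgeR), and Foxm1 rose 2.76-fold. Mybl1 (A-Myb) rose 4.12-fold. The core subunits parted, with Lin54, which binds DNA, 1.98-fold higher, Lin9 1.55-fold higher and Lin37 1.47-fold lower. Rbbp4 had a log2 fold change of 0.09 (adjusted p = 0.066) and Lin52 of -0.22 (adjusted p = 0.24).

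**Figure D3:**
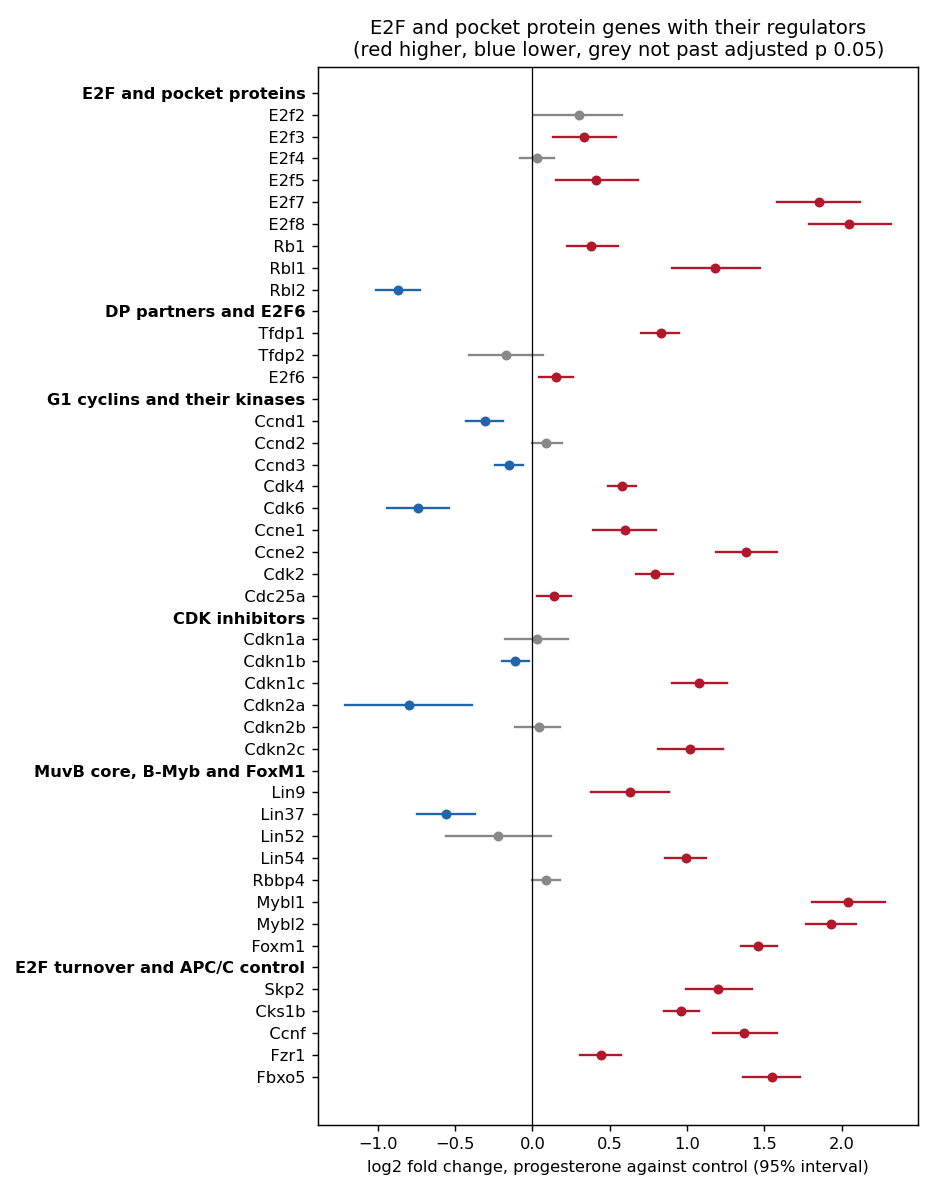
Log2 fold change of progesterone against control (horizontal axis) with its 95% interval for each E2F and pocket protein gene and for its partners, kinases, inhibitors, MuvB factors and turnover factors. Red points are higher and blue points lower at an adjusted p under 0.05, and grey points did not pass. E2f8 (2.05), Mybl1 (2.04), Mybl2 (1.93) and E2f7 (1.85) lie farthest to the right and Rbl2 (-0.87) farthest to the left.

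Genes that act on E2F stability or on the anaphase-promoting complex rose in 5 of 5 cases, where 31.2% of all genes tested were higher. Fbxo5 (Emi1), an inhibitor of that complex and an E2F target, rose 2.92-fold, Ccnf, the cyclin F that directs E2Fs to degradation, 2.59-fold, and Skp2, the ubiquitin ligase subunit for p27, 2.3-fold. Cks1b, its cofactor, rose 1.95-fold and Fzr1, the activator of the complex in G1, 1.36-fold. Among genes of chromatin factors recruited by pocket proteins, 3 of 8 were higher, 4 lower and 1 did not pass. Over all genes tested 31.2% were higher and 31.8% lower. The median log2 fold change of these chromatin genes was -0.19. Rbbp7 and Hdac2 rose 1.3-fold and 1.26-fold, and Hdac1 and Kdm5a were 1.29-fold and 1.18-fold lower.

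Replication and mitotic targets were almost all higher, while the apoptosis targets given here were lower. Of 30 G1/S genes known as E2F targets, 29 were higher and 0 lower, and their median on the log2 scale was 1.1. The exception was Gins2, a replication helicase subunit, at 0.00 ± 0.07. In these genes 13 of 24 promoter windows held an E2F word (54.2%) and 3 a TTTGAA (12.5%). Of 25 tested G2/M genes of the DREAM class, 25 were higher (median 1.14), and there 10 of 23 windows held TTTGAA (43.5%) and 5 an E2F word (21.7%), where 10.1% of windows of genes tested held TTTGAA. The 4 genes with the smallest adjusted p were Mcm6, Mcm5, Uhrf1 and Mcm7 among G1/S genes, at log2 fold changes of 1.5, 1.79, 1.79 and 1.29, and Top2a, Mki67, Prc1 and Kif11 among G2/M genes, at 1.78, 1.39, 1.26 and 1.49. Among apoptosis genes known as E2F1 targets, which are given in part, Casp8, an initiator caspase gene, was lower (log2 fold change -2.20 ± 0.13), as were Bcl2l11 (-0.56 ± 0.07), Pmaip1 (-0.45 ± 0.12) and Apaf1 (-0.28 ± 0.05). In the same comparison 31.2% of all genes were higher and 31.8% lower.

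**Figure D4:**
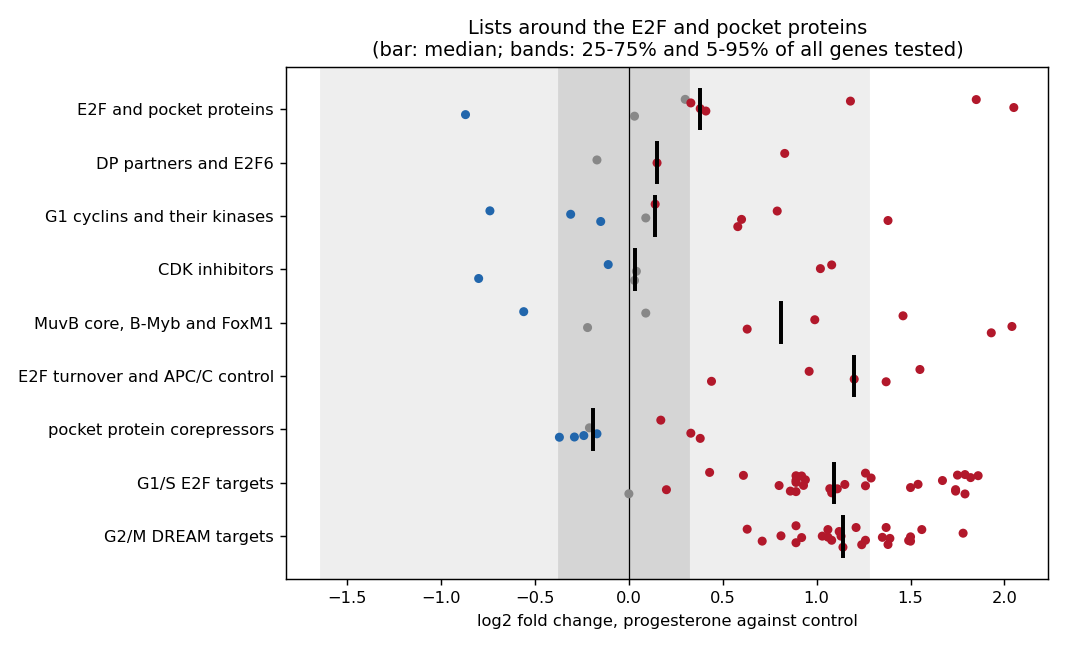
Log2 fold change of progesterone against control (horizontal axis) for the genes of the lists named on the vertical axis, 1 point per gene tested (red higher, blue lower, grey not past an adjusted p of 0.05), with a bar at the median. Bands give the middle of all genes tested (-0.37 to 0.32 from the 25th to the 75th percentile, -1.64 to 1.28 from the 5th to the 95th). G1/S and G2/M targets have medians of 1.1 and 1.14.

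Several other gene groups moved with the treatment in the same libraries, and their part in these results was not tested. All 12 interferon-stimulated genes tested were lower, from a summed 11306.8 to 11567.9 CPM in the controls to 82.4 to 92.9 CPM with progesterone. Cardiomyocyte markers were read at a summed 15810.9 to 16444.6 CPM in the controls and 16942.5 to 19480.8 CPM with progesterone, with 6 of 12 higher and 4 lower. This sum rose largely through Actc1 (mean 4627.1 to 7514.2 CPM), while Myh6 (4383.6 to 3497.9 CPM) and Tnnt2 (2306.9 to 1881.2 CPM) fell. Fibroblast markers, at 27509.2 to 28599.5 and 36939.4 to 39897.5 CPM, gave larger sums than cardiomyocyte markers in both groups (4 of 8 higher, 3 lower). Their sum rose largely through Col3a1 (mean 6556.5 to 13735.3 CPM) and Postn (2905.9 to 5681.9 CPM). Pdgfra (804.5 to 370.3 CPM) and Dcn (2093.5 to 945.7 CPM) fell. At least 2-fold, 1 fibroblast marker was higher and 2 were lower. For smooth muscle and pericytes 8 of 8 markers rose (2109.9 to 2487.4 and 4976.8 to 5570.5 CPM) and for leukocytes 6 of 7 (41.0 to 61.2 and 189.0 to 212.6 CPM, with Cd3e at 0 in all libraries). Of 7 endothelial markers 1 was higher and 3 lower (148.3 to 195.5 and 99.2 to 139.0 CPM). For comparison with all these counts, 31.2% of all genes tested were higher and 31.8% lower. In which of these cell types the E2F and pocket protein transcripts were made cannot be told apart in bulk RNA.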

How the data were processed

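The authors deposited 1 table of raw read counts and 1 of FPKM for 3 control and 3 progesterone libraries, grouped by their titles. A TruSeq RNA kit was used, per the labels' protocols. Bowtie 0.12.2 and mm8, a mouse build, stand in the submitters' processing notes, while rows carry rat Ensembl identifiers. Of the counting, the tool, rat build and strand setting were not given in the sources used here. Rows with an identifier and no symbol (682 of 33565) held 0.826% to 0.896% of the counts, and 295 clone-named rows took the RefSeq symbol of the gene accession they cite.

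The test was edgeR's quasi-likelihood test (version 4.0.16, R 4.3.3) on TMM-scaled counts with robust dispersion, after filterByExpr (count 10, total 15), with Benjamini-Hochberg adjustment over all genes tested and a threshold of 0.05. The SE is the log2 fold change over the square root of F. The procedure was also run on simulated data with few changed genes, as many raised as lowered, and a single dispersion. In these libraries 63.0% of genes changed, so that run cannot speak to the scaling or to false calls here. No replicate pair agreed within sampling noise (chi-square over its degrees of freedom 5.84 to 10.2), and the first principal component held 85.1% of the variance.

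Named genes were the set, every gene of the partner, G1 cyclin, inhibitor, MuvB and turnover lists, and up to 4 genes with the smallest adjusted p of other lists. Genes and lists were chosen with earlier results of these data known. Listed genes without a matching row (Cdkn2d, Suv39h1, Ccnb2, Nek2, Bbc3, Ttn, Col1a2, Pecam1 and Itgam) were not analysed here. The list of apoptosis targets is given in part: some of its genes, and so its count and median, are not reported here, a choice not based on their values. Pmaip1 and Apaf1 fall outside the naming rule and were named after their values were seen. The same holds for the markers Actc1, Myh6, Tnnt2, Col3a1, Postn, Pdgfra and Dcn.

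The alternatives changed the scaling (RLE, upper quartile, library size) or the filter (none, or 1 CPM in 3 libraries), left out each replicate, or used a block on replicate number, DESeq2 1.42.0 or limma 3.58.1 on log2(FPKM + 1) and log2(FPKM + 0.1) of the deposited values.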

Additional observations from a re-analysis of the deposited data

How the results depend on the processing

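The 9 genes were recomputed under 15 alternatives, and 132 of the 135 values kept their direction and their side of the threshold, with none reversed. The exceptions were E2f2 (0.39, adjusted p = 0.017) and E2f4 (0.13, 0.041), which passed with upper quartile scaling, and E2f5 (0.31, 0.059), which did not pass without progesterone replicate 3. Between 6 and 9 of the 9 genes changed, 5 to 8 of them higher and 1 lower. Log2(FPKM + 1) gave the smallest values for E2f7 (1.2) and E2f8 (1.52), since a pseudocount shrinks low genes. Over all genes, 8574 to 9871 changed, against 9497. The share of higher genes among those changed was 60.1% with upper quartile scaling and 49.6% with TMM. For the DP partners and E2f6, 1 gene in place of 2 changed with DESeq2, and 1 to 2 when a replicate was left out. The counts of the other lists stayed within 1.5 times. Same-numbered libraries did not deviate together (correlations 0.0492, 0.018 and -0.000936 for replicates 1, 2 and 3). Only 2 of 6 libraries were closest to their own number. No pairing by number was thus seen, although so few libraries cannot exclude it. With a replicate block 9508 genes changed and 7 of the 9 genes, 6 higher and 1 lower. The lowest counts, 241 for E2f7 and 277 for E2f8 over the controls, limit the precision of their folds.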
